A study of Mus musculus with 21 samples.

Results

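Rbm10 and 6 genes that lie beside it on the mouse X chromosome, Ndufb11, Uba1, Cdk16, Usp11, Araf and Timp1, were followed through RNA-seq and iCLIP libraries of cells with and without Rbm10. The 7 genes were taken by name, as Rbm10 and its neighbours, out of 37310 annotated genes. RNA-seq of polyadenylated RNA covered md MEPA (Mouse Embryonic Pharyngeal Arch) cells. This line derives from the mandibular arch of 11.5 d.p.c. embryos, of CD1 mothers and an 'Immortomouse' father, and was grown at 33 °C with 100 U/ml murine interferon. In these cells 4 knockout clones made by CRISPR were compared with 3 wild-type (WT) samples. Exon 3 of Rbm10 is deleted in KO1 and KO2, and exon 9 in KO3 and KO4. Which transcript numbers those exons is not given in the sources used here. In male embryonic stem (ES) cells on gelatin with LIF, 3 samples of the gene trap line Rbm10Gt(CSI176)Byg were compared with 3 samples of its parental line, E14Tg2a.4, so each ES group is 1 line. In iCLIP, UV light links a protein to the RNA it touches and the crosslinked nucleotide is read out. The md MEPA cells, irradiated at 254 nm, gave 4 libraries with an anti-RBM10 antibody and 4 with rabbit IgG. The RBM10 libraries shared a sequencing lane and the IgG libraries had a different one, so the effect of lane and that of antibody cannot be told apart.

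RBM10 is an RNA-binding protein that regulates alternative splicing, in many cases by promoting the skipping of exons near which it binds. Loss of RBM10 in humans causes TARP syndrome, an X-linked condition with cleft palate and limb and heart defects. In human cells RBM10 is also known to act on its own transcripts, by promoting the skipping of exons whose loss leads to nonsense-mediated decay. The neighbours serve other processes. Ndufb11 encodes a subunit of respiratory complex I, Uba1 the main enzyme that activates ubiquitin, Cdk16 a cyclin Y-dependent kinase and Usp11 a deubiquitinase. Araf encodes a kinase of the Raf family that acts upstream of MEK and ERK, and Timp1 a secreted inhibitor of matrix metalloproteinases.

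The genes occupy a stretch of chromosome X with all but Ndufb11 on the forward strand (mm9). Ndufb11 (chrX:20192452-20194745, reverse strand) and Rbm10 (chrX:20194629-20228027) stand head to head, and their annotated ends overlap by 117 nt. Downstream follow Uba1 (chrX:20235452-20260305), Cdk16 (chrX:20265080-20277006), Usp11 (chrX:20281032-20297665), Araf (chrX:20374940-20437645) and Timp1 (chrX:20447292-20451861). Timp1 lies inside Syn1, which is transcribed from the other strand. Whether the RNA-seq used strand is not given in the sources used here, so reads from overlapping or antisense genes cannot be told apart.

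The RNA-seq values are TPM, an abundance scaled by transcript length and library total, and the read depth behind them is unknown. The RBM10 libraries held 774816 to 2847066 crosslinks and the IgG libraries 103017 to 2214515, of which 756 to 3116 and 51 to 758 lay on the 7 genes. Of the 9 arch mesenchyme markers, Hand2 was listed at 0 in every md library and Dlx5 reached at most 0.231 TPM, while the list summed to 3142 to 4973 TPM in the clones and 4609 to 4902 in WT. The 8 ES cell markers summed to 4250 to 4709 TPM in gene trap samples and 4429 to 5300 in those of the parental line, and Pou5f1 was listed at 0 in md cells. Klf4 and Sox2 of that list measured 21.3 to 48.5 and 3.25 to 15.3 TPM in md cells. Most of each sum came from 1 gene, Vim in md cells (2405 to 3341 TPM) and Dppa5a in ES cells (2578 to 3259 TPM). The labels do not call the md WT samples, or those of each ES line, separate cultures. The p-values then reflect only how these samples scatter, and that scatter may be technical.

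Rbm10 RNA was low in the ES gene trap line and in the exon 9 clones, and near the WT level in the exon 3 clones. Each gene's TPM is the total of its transcripts. In ES cells Rbm10 measured 4.27, 3.63 and 4.25 TPM in the gene trap samples against 32.5, 33.5 and 32.2 in WT. The groups lay far apart, at 4.05 ± 0.366 and 32.7 ± 0.683 TPM (SD, n = 3 each), which left 12.4% of the WT level. The difference on the log2(TPM + 1) scale was −2.74 (SE 0.092, adjusted p = 6.69e-05 by limma) and Rbm10 had the second lowest p of 12860 genes. It kept this call in 11 of 11 alternative analyses.

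In md cells Rbm10 measured 23.2 and 19.7 TPM in exon 3 clones KO1 and KO2, 7.20 and 3.49 TPM in exon 9 clones KO3 and KO4, and 21.4, 23.2 and 23.7 TPM in WT. KO1 lay within the WT range and KO2 just under it, whereas KO3 and KO4 lay far below every other md library. The exon 3 clones held 94.1% of the mean WT level, KO3 31.6% and KO4 15.3%. The exon 9 clones differed from WT by −1.97 on the log2(TPM + 1) scale (SE 0.25, limma adjusted p = 0.0334) and from the exon 3 clones by −1.88 (SE 0.27, limma adjusted p = 0.0247). The exon 3 clones did not pass the test against WT (−0.09, SE 0.25, limma adjusted p = 0.892). Both calls needed every WT sample. Without WT1, WT2 or WT3 the adjusted p was 0.182, 0.185 and 0.179 against WT and 0.0817, 0.0814 and 0.0784 against the exon 3 clones, and without KO1 or KO2 it was 0.0515 and 0.0513 against WT and 0.0767 and 0.0513 between clones. The 4 clones taken as 1 group gave −1.03 (SE 0.56, limma adjusted p = 0.762), a mean over clones that do not resemble each other in Rbm10 level.

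Ordered by level, Rbm10 was highest in ES WT (32.7 TPM), followed by md WT (22.8 ± 1.20 TPM, SD, n = 3), the exon 3 clones (21.4 ± 2.47, SD, n = 2), the exon 9 clones (5.34 ± 2.62, SD, n = 2) and the ES gene trap line (4.05). Neighbours in this order overlapped at md WT with the exon 3 clones, and at the exon 9 clones with the gene trap line. The md and ES values come from tables normalised separately, so an order across cell types is a description.

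**Figure D1:**
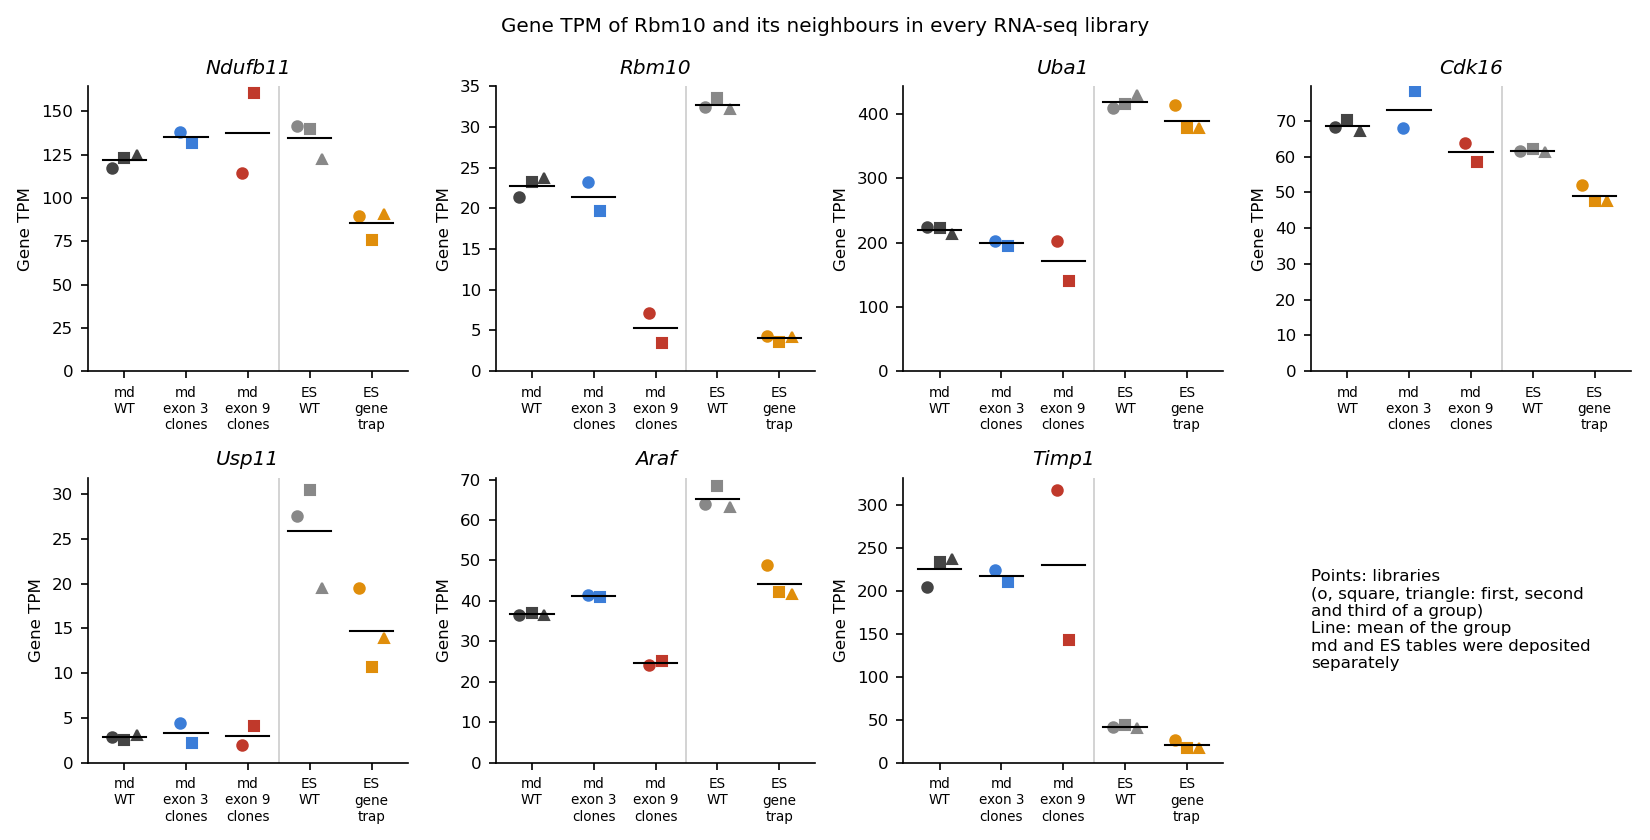
Gene TPM (y axis, linear, from 0) of the 7 genes in every RNA-seq library, grouped on the x axis by cell type and genotype; points are libraries and lines are group means. Rbm10 sits at 3.49 to 7.20 TPM in the exon 9 clones and 3.63 to 4.27 in gene trap samples. Araf is the neighbour with both exon 9 clones below all other md libraries by the widest relative margin.

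Of the 7 genes, 5 fell in the ES gene trap line and none rose. In that comparison 12.3% of 12860 genes were called, 4.73% lower and 7.53% higher. Besides Rbm10 these were Timp1, Ndufb11, Araf and Cdk16, and Usp11 and Uba1 did not pass. Timp1 measured 26.6, 17.7 and 17.7 TPM in the gene trap samples against 42.1, 44.1 and 40.3 in WT, so no sample overlapped, and it fell by 1.02 on the log2(TPM + 1) scale (SE 0.16, limma adjusted p = 0.0212).

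Ndufb11, which shares its start region with Rbm10, measured 89.6, 75.5 and 90.8 TPM against 142, 140 and 123 in WT. All gene trap samples lay below all WT samples, and the gene fell by 0.66 (SE 0.11, limma adjusted p = 0.0223). Araf measured 48.8, 42.3 and 41.8 TPM against 64.0, 68.3 and 63.2, again with no overlap, and fell by 0.55 (SE 0.091, limma adjusted p = 0.0232). Cdk16 measured 52.1, 47.5 and 47.4 TPM against 61.4, 62.0 and 61.3. Its groups were apart as well, and it fell by 0.32 (SE 0.077, limma adjusted p = 0.0427).

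Usp11 varied more between samples, with 19.5, 10.7 and 14.0 TPM in the gene trap line against 27.6, 30.4 and 19.5 in WT. The highest gene trap sample all but met the lowest WT sample. The difference of −0.79 (SE 0.24) did not pass (limma adjusted p = 0.0723), but it did without gene trap sample 1 (−0.999, adjusted p = 0.0217) and without WT sample 3 (−0.97, adjusted p = 0.0495). Uba1, the most abundant of the 7 in ES cells, measured 413, 377 and 378 TPM against 409, 415 and 429. Its groups overlapped and it did not pass (−0.10, SE 0.081, limma adjusted p = 0.4001, 95% interval −0.29 to 0.09).

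The 4 neighbours' calls depended on which sample was left out. Leaving out gene trap sample 2 or 3, or WT sample 1 or 2, ended the calls of Ndufb11, Araf, Cdk16 and Timp1, with adjusted p-values of 0.0893, 0.0776, 0.109 and 0.102 for Ndufb11, 0.0987, 0.0931, 0.109 and 0.106 for Araf, 0.159, 0.146, 0.163 and 0.152 for Cdk16 and 0.0893, 0.0846, 0.105 and 0.0968 for Timp1 in that order. Over the whole table those fits called 62, 56, 49 and 59 genes in place of 1576. Ndufb11, Araf and Timp1 kept their calls without gene trap sample 1 and without WT sample 3. The call of Cdk16 was also lost without WT sample 3 (adjusted p = 0.0529) and with no filter on low values (0.0572). The sizes of the differences moved little, from −0.57 to −0.70 for Ndufb11 and from −0.51 to −0.56 for Araf over those 4 fits.

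Within 500 kb of Rbm10 the annotation holds 19 protein-coding genes, of which 14 were tested in ES cells. The 5 calls among them, all of lower genes, were the 5 named above. In all, 12 of the 14 differences were below 0, with a median of −0.30 against 0.03 over all genes. Among the others, Phf16, on the Ndufb11 side, stood at +0.41 (limma adjusted p = 0.0696), Rp2h beyond it at +0.02 (0.922), and Syn1, Elk1, Cfp, Zfp182 and Uxt, on the Timp1 side, between −0.17 and −0.31. Over chromosome X 34 genes were called lower and 30 higher of 499 tested, and the median was −0.02 against 0.03 over the other chromosomes.

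**Figure D2:**
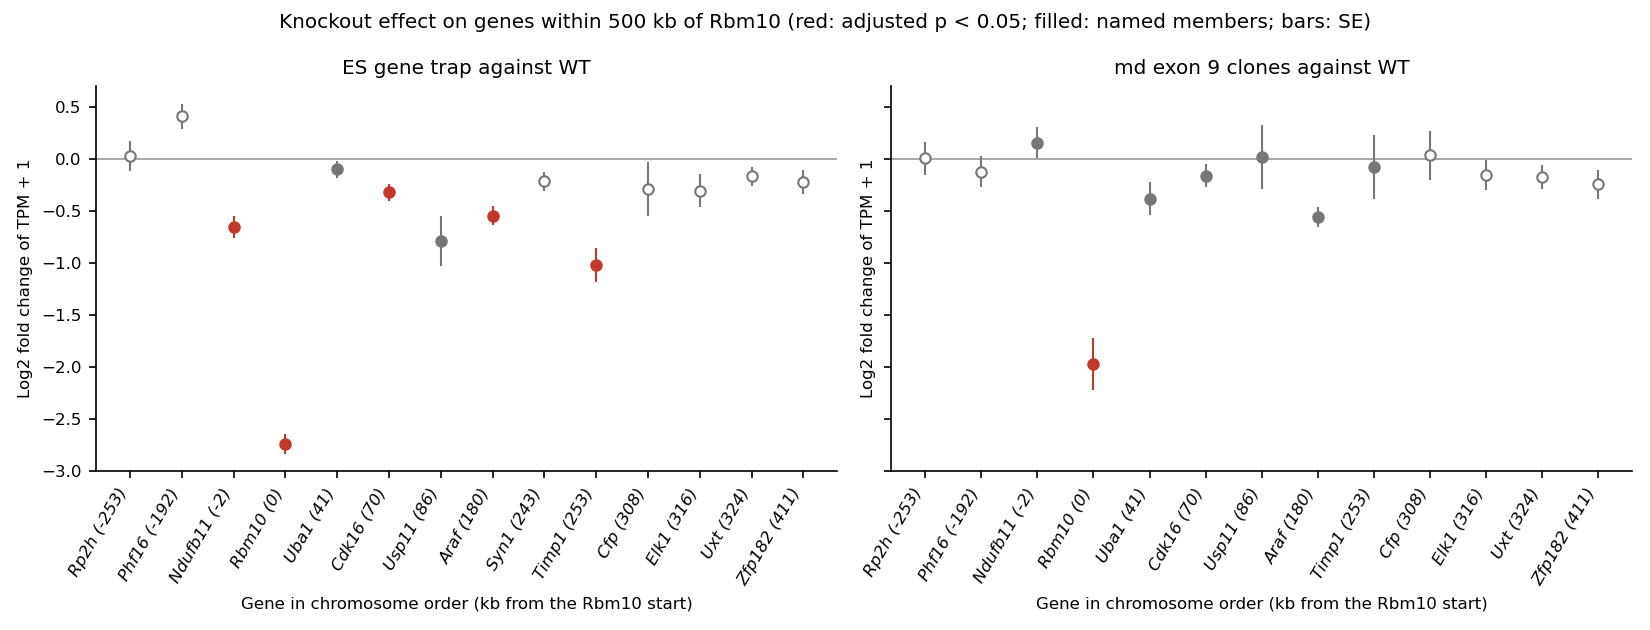
Difference between knockout and WT in log2(TPM + 1) (y axis) for the tested genes within 500 kb of Rbm10, in chromosome order with the distance in kb from the Rbm10 start (x axis); bars are SE, filled points the 7 genes and red points adjusted p under 0.05. In ES cells (left) Rbm10 lies at −2.74 and the called neighbours between −0.32 and −1.02, and in the md exon 9 clones (right) only Rbm10, at −1.97, is called.

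Genes of the ES state moved in the same comparison, in which 4.73% of 12860 genes were called lower and 7.53% higher. Calls of the markers and sex chromosome genes were not followed with samples left out. Of the 8 ES cell markers 3 fell, Nanog by 0.82 (adjusted p = 0.0229), Esrrb by 1.19 (0.0232) and Klf4 by 0.68 (0.0358) on the log2(TPM + 1) scale by limma, while Pou5f1 did not pass (+0.23, 0.0925). Their part in the differences of the neighbours was not tested. Of 3 leukocyte and 3 endothelial markers 3 reached the filter and 1, Cd68, was called (−0.59, 0.0289), while Ptprc was listed at 0 throughout. Of 4 epithelial and 5 fibroblast markers none was called by limma, with 1 and 0 at an unadjusted p under 0.05. Of the 11 sex chromosome genes 3 fell, the Y-linked Ddx3y by 0.55 (0.0350) and Uty by 0.63 (0.0269), and Tsix, the antisense partner of Xist, by 0.52 (0.0480).

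In md cells none of the 6 neighbours was called against WT. With the 4 clones as 1 group limma called none of the 7 genes, none of the 7 had an unadjusted p under 0.05, and 0.0165% of 12090 genes were called. In the exon 3 clones none of the 7 was called and none had an unadjusted p under 0.05 (0.199% of genes called, 0.0331% higher), and in the exon 9 clones Rbm10 was the 1 call (0.629% called, 0.372% lower). Between the exon 9 and exon 3 clones Rbm10 and Araf were called (3.73% called, 2.32% lower and 1.41% higher).

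Araf followed Rbm10 most closely of the neighbours in md cells. It measured 41.5 and 41.0 TPM in KO1 and KO2, 24.1 and 25.1 TPM in KO3 and KO4, and 36.6, 37.1 and 36.4 TPM in WT. The exon 9 clones lay below and the exon 3 clones above every WT sample. Exon 9 clones were lower than exon 3 clones by 0.72 on the log2(TPM + 1) scale (SE 0.10, limma adjusted p = 0.0237), and the call was lost without WT1 (adjusted p = 0.0960), WT2 (0.0970) or WT3 (0.0938). Against WT the exon 9 clones stood at −0.56 (SE 0.095) and did not pass (limma adjusted p = 0.0771), but did without KO3 (0.0346) or KO4 (0.0269).

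Uba1 measured 203 and 195 TPM in KO1 and KO2, 202 and 140 TPM in KO3 and KO4, and 224, 222 and 214 TPM in WT. All 4 clones lay below all WT samples, KO4 by far the most. The exon 9 clones against WT gave −0.38 (SE 0.16, limma adjusted p = 0.327), and KO4 without KO3 gave −0.65 (adjusted p = 0.0278). Timp1 set the 2 exon 9 clones apart from each other, with 317 TPM in KO3 and 143 in KO4, against 225 and 211 in KO1 and KO2 and 205, 234 and 237 in WT. The mean difference of −0.08 (SE 0.31, limma adjusted p = 0.928) became +0.49 without KO4 (0.0769) and −0.66 without KO3 (0.0388).

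Ndufb11 measured 138, 131, 114 and 160 TPM in KO1 to KO4 and 117, 123 and 125 TPM in WT, and the highest and the lowest library were both exon 9 clones. Cdk16 measured 68.0, 78.2, 63.8 and 58.5 TPM in the clones and 68.1, 70.3 and 67.1 TPM in WT, with both exon 9 clones at the low end. Usp11 was near the filter in md cells, at 4.42, 2.16, 1.94 and 4.09 TPM in the clones and 2.83, 2.59 and 3.07 TPM in WT. For these genes the exon 9 clones gave +0.15 (Ndufb11), −0.16 (Cdk16) and +0.02 (Usp11) on the log2(TPM + 1) scale, with limma adjusted p-values of 0.678, 0.532 and 0.989.

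The clones differed from WT and from each other in other ways that move with these values. Eif2s3y, a Y-linked gene of translation initiation, measured 4.94, 3.14 and 3.39 TPM in WT and was listed at 0 in all 4 clones. The Y-linked Ddx3y was likewise at 0 in the clones against 1.30, 0.898 and 1.46 TPM in WT. Uty reached at most 0.266 TPM in the clones against 0.951, 0.925 and 0.627. The X-linked Ddx3x was lower in every clone (171 to 222 TPM against 266 to 279), while the X-linked Kdm6a and Kdm5c overlapped. KO3 stood apart from the other md libraries in Dusp6 (21.6 TPM) and Spry2 (33.0 TPM), feedback inhibitors of ERK signalling that reached at most 2.12 and 7.60 TPM in the others. Between the exon 9 and exon 3 clones the mesenchymal collagen gene Col3a1 was higher (+3.28, adjusted p = 0.0338), as was Klf4 (+0.91, 0.0338), and the macrophage marker Cd68 was lower (−1.75, 0.0357) by limma. Over all genes 3.73% were called in this contrast, and not all other markers of the same lists followed. Vim measured 2575 and 3188 TPM in KO1 and KO2 against 2405 and 2410 in KO3 and KO4. Col1a1 (457 and 265 against 174 and 799) and Sox2 (7.63 and 15.3 against 12.4 and 3.25) overlapped, and Ptprc was listed at 0. The part of these differences in the neighbours' values was not tested. Each kind of deletion is represented by 2 clones.

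The knockout effect on Ndufb11 differed between the ES gene trap line and the md clones made by CRISPR. Cell type and kind of mutation go together here, so their effects cannot be told apart. Its difference was −0.66 in ES cells and +0.15 (SE 0.13) over the 4 md clones, and the contrast between them was −0.81 (SE 0.17, limma adjusted p = 0.0484), 1 of 7 genes called where 0.985% of 10558 genes were called, 0.502% lower and 0.483% higher. It passed by a narrow margin, and was lost without any 1 of KO1 (adjusted p = 0.0537), WT1 (0.154), WT2 (0.132) or WT3 (0.114) of md cells, or of gene trap sample 2 (0.157) or 3 (0.108) or WT sample 1 (0.146) or 2 (0.137) of ES cells. For Rbm10 the contrast was −1.71 (SE 0.65, limma adjusted p = 0.160) and passed without KO4 (−2.17, 0.0404). For Araf it was −0.35 (SE 0.26, 0.457), for Timp1 −0.95 (SE 0.32, 0.124) and for Usp11 −0.85 (SE 0.37, 0.206). Cdk16 (−0.29, 0.269) and Uba1 (+0.16, 0.633) did not pass either.

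The families and pathways of the neighbours were examined as lists. Of 19 other subunits of respiratory complex I, limma called none in ES cells, with 2 at an unadjusted p under 0.05, 15 of 19 below 0 and a median of −0.11 against 0.03 over all genes. It called none of them in the md contrasts either, with 1 such p over the 4 clones, 3 in the exon 3 clones, 4 in the exon 9 clones and 7 between the kinds of clone. Over all genes tested 12.3% were called in ES cells, and 0.0165, 0.199, 0.629 and 3.73% in the md contrasts in that order. Of 9 genes of the Raf pathway 3 rose in the gene trap line, among them the feedback inhibitors Dusp6 (+0.80, limma adjusted p = 0.0155) and Spry2 (+0.47, 0.0463), with a list median of 0.32 against 0.03. Over all genes tested there 7.53% were called higher, and calls in these lists were not followed with samples left out. Dusp6 measured 34.6, 43.2 and 43.3 TPM against 22.3, 22.8 and 22.6 in ES WT, with the groups far apart.

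No tested gene was called in ES cells among 6 other E1 enzymes, 5 kinases related to Cdk16 and their cyclin, 3 deubiquitinases, 4 inhibitors and metalloproteinases and 4 RNA-binding proteins that include Rbm5 and Rbm6, the closest relatives of Rbm10. Unadjusted p-values under 0.05 numbered 1, 1, 0, 1 and 2 in these lists by limma, where 12.3% of all genes tested were called. Between the exon 9 and exon 3 clones Cdk18, a kinase close to Cdk16, was higher (+1.83, adjusted p = 0.00812). It was listed at 0 in KO1 and KO2 and measured 2.62 and 2.52 TPM in KO3 and KO4, against 1.06, 0.712 and 0.935 in WT. Timp2, an inhibitor related to Timp1, was lower by the same contrast (−0.87, adjusted p = 0.0289 by limma). Cdk18 and Timp2 are named because they were called. Over all genes tested 3.73% were called in this contrast, 1.41% higher and 2.32% lower, so such calls in these lists are no result about the families.

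Transcript tables show where along Rbm10 the remaining ES RNA was assigned. In ES WT, Rbm10-002 (ENSMUST00000084383) held 82.8, 71.0 and 68.2% of Rbm10 TPM and Rbm10-202 (ENSMUST00000082089) 14.2, 27.9 and 29.9%. In the gene trap line both were listed at 0 in all samples, and 83.0, 79.1 and 84.1% went to Rbm10-003 (ENSMUST00000141128), which was listed at 0 in WT. The remainder went to Rbm10-001 (9.66, 5.78 and 2.99%) and Rbm10-004 (7.37, 15.1 and 12.9%). The groups did not overlap on Rbm10-002, Rbm10-202 or Rbm10-003. Rbm10-003 is a processed transcript of 17 exons that ends at chrX:20226322, inside exon 18 of Rbm10-001, the transcript of 24 exons by which exons are numbered below.

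The shares of Rbm10-003 (+82.1 points, SE 2.63, limma adjusted p = 0.000728) and Rbm10-002 (−74.0 points, SE 4.26, 0.0140) were 2 of the 9 calls among 18872 transcripts (0.0477%, of which 0.0318% higher and 0.0159% lower). That of Rbm10-202 (−24.0 points, SE 4.21) did not pass (0.128). The call of Rbm10-002 was lost without gene trap sample 2 (adjusted p = 0.0775) or 3 (0.145) and without WT sample 2 (0.127) or 3 (0.0628), each at −74.0 to −76.9 points. Summed over transcripts, exons 19 to 24 carried 0.728, 0.757 and 0.674 TPM in the gene trap samples, against 32.5, 33.5 and 32.2 TPM in WT. TPM of exon 18 was 4.27, 3.63 and 4.25 in the gene trap samples.

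**Figure D3:**
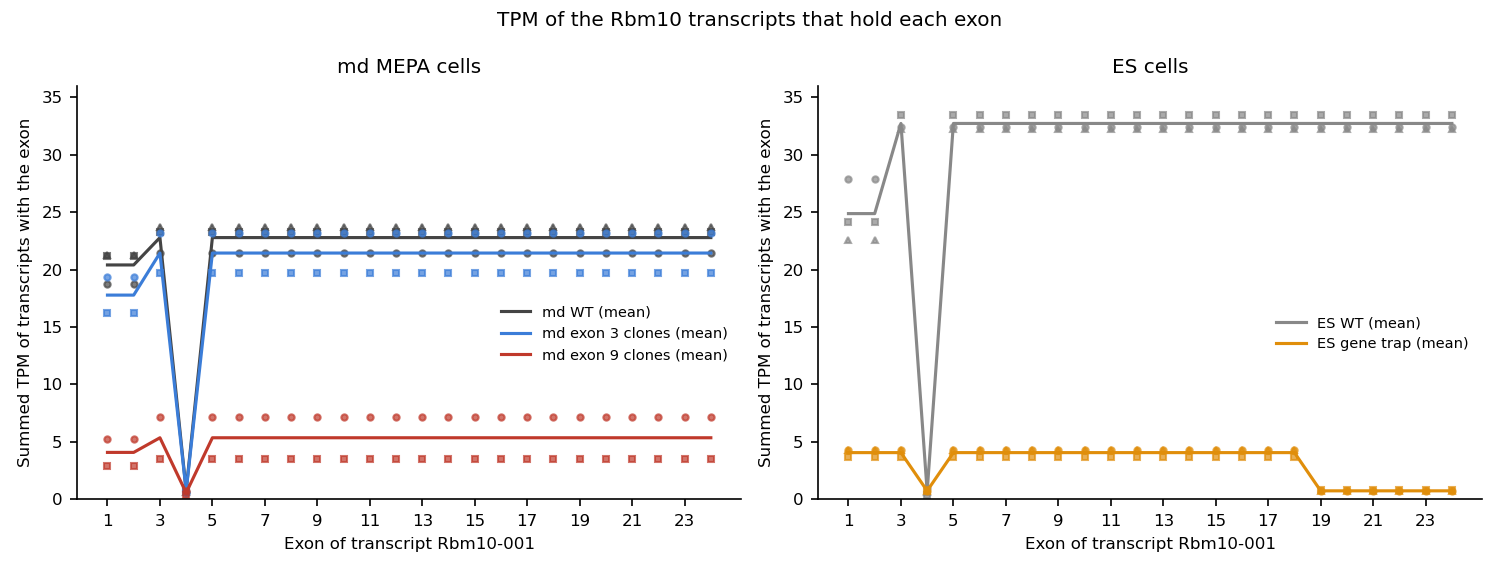
Summed TPM of the annotated Rbm10 transcripts that hold each exon of Rbm10-001 (x axis, exon number; y axis, TPM from 0), for md cells (left) and ES cells (right); lines are group means and points libraries. The gene trap line runs at about 4.05 TPM up to exon 18 and at most 0.757 TPM from exon 19, exon 4 is low in every group, and the exon 9 clones lie below the other md libraries at the exons that all transcripts hold, but overlap them at exon 4 (0.730 TPM in KO3, 0.648 in WT1). Exons held by all transcripts share 1 value by construction.

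Rbm10 is made as a long and a short isoform that differ by exon 4, a coding cassette of 231 nt or 77 codons between AG and GT (mm9, forward strand). It is shown because its inclusion sets the isoform:
Rbm10 exon 4 (chrX:20214552-20214782): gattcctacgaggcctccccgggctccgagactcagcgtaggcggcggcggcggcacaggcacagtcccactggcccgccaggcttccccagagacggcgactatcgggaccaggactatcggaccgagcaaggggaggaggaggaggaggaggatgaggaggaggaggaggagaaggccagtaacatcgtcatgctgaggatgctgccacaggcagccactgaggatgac

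Exon 4 was mostly skipped in all groups. Its percent spliced in was 2.99, 1.09 and 1.92 in ES WT and 3.02, 4.32 and 2.54 in md WT. In the gene trap samples it was 17.0, 20.9 and 15.9, above every WT sample. The difference of 15.9 points (SE 2.00) passed (limma adjusted p = 0.0449), 1 of 17 calls among 3765 cassette exons (0.452%, with 0.345% higher). It did not pass in any of 9 alternatives, in which the adjusted p was 0.0581 to 0.189. The TPM of transcripts with exon 4 was 0.728, 0.757 and 0.674 in the gene trap line and 0.969, 0.365 and 0.620 in WT, so the share differed while the level of exon 4 overlapped. Leaving out gene trap sample 1, 2 or 3 gave 0.0804, 0.0857 and 0.0819, and leaving out WT sample 1, 2 or 3 gave 0.186, 0.185 and 0.111. These are also the transcripts that carry exons 19 to 24, so the inclusion value and the loss of the 3′ end rest on the same assignments.

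In md cells exon 4 inclusion was 2.34 and 4.47% in KO1 and KO2, 10.1 and 10.4% in KO3 and KO4, and 2.54 to 4.32% in WT. Both exon 9 clones lay above every other md library. The TPM of transcripts with exon 4 was 0.730 in KO3 and 0.364 in KO4, against 0.648, 1.00 and 0.603 in WT. The share was thus higher while the level of exon 4 was within the WT range in KO3 and below it in KO4. Over the 4 clones the difference was 3.55 points (SE 2.32) and did not pass (limma adjusted p = 0.696), and neither this nor any other of the 4 member events tested had an unadjusted p under 0.05 (0% of 4152 cassette exons called). In the exon 9 clones the share of Rbm10-002 stood 18.4 points below WT (SE 3.41, limma adjusted p = 0.229), Rbm10-202 11.4 points above (0.381) and Rbm10-004 (ENSMUST00000115375) 7.0 points above (SE 1.35, 0.232). No member transcript was called there by limma (0.0748% of 18725 transcripts called, 0.0374% in each direction), although these 3 had unadjusted p-values under 0.05. With the clones as 1 group none was called and 3 had such a p, and in the exon 3 clones none was called and 1 had (0% of transcripts called in both). All 6 annotated Rbm10 transcripts hold exons 3, 6 and 9, so a deletion in exon 3 or 9 and the skipping of exon 6 cannot be read from these tables.

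No transcript share or cassette exon of a neighbour was called between genotypes by limma. A 112-nt cassette exon of Araf (chrX:20434537-20434648) was included at 26.2, 24.7 and 26.6% in the gene trap samples and 29.6, 29.1 and 39.9% in ES WT, without overlap, but the difference of −7.01 points (SE 3.58) did not pass (limma adjusted p = 0.433). A 71-nt cassette exon of Usp11 differed by −9.45 points between the md clones and WT (SE 6.43, limma adjusted p = 0.699), with overlap. Between cell types the ranges lay further apart. Ndufb11 has 1 annotated transcript. Of Uba1, transcript Uba1-002 held 73.8 to 80.7% of TPM in md cells and 26.3 to 33.1% in ES cells, whereas the processed transcript Uba1-005 held 3.25 to 7.10% and 39.1 to 41.9%. Araf-001 held 35.6 to 55.5% in md and 7.41 to 10.4% in ES cells, and a 45-nt cassette exon of Araf (chrX:20426238-20426282) was included at 11.1 to 20.3% in md and 63.8 to 68.8% in ES cells. Timp1-001 held 75.8 to 82.8% in md and 46.2 to 57.5% in ES cells. No sample of the 2 cell types overlapped on these 5 measures, but the tables were made separately and the difference was not tested. Cdk16-001 led in both, with 67.5 to 76.5% and 82.4 to 89.0%, and so did Usp11-001, with 56.6 to 79.6% and 83.4 to 97.9%.

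RBM10 crosslinks were found over all 7 genes, and 5 of 6 tested gene bodies held more in the RBM10 than in the IgG libraries. Of 9284 gene bodies tested, 37.4% were called and 20.4% were called higher (17.0% lower), after scaling by TMM factors. Without these factors the median log2 difference of all gene bodies moved from 0.05 to 0.32, and 29.8% were called higher and 9.92% lower. Crosslinks scaled to the total of each library (CPM) over Araf were 155, 121, 226 and 223 in the RBM10 libraries and 54.9, 41.1, 68.0 and 63.3 in IgG, with no overlap, and the difference was 1.54 on the log2 scale (edgeR quasi-likelihood adjusted p = 0.00120). Over Rbm10 itself they were 184, 143, 246 and 183 against 71.5, 47.4, 87.4 and 94.9, or 189 ± 42.5 against 75.3 ± 21.0 CPM (SD, n = 4 each). Every RBM10 library exceeded every IgG library, and the log2 difference was 1.22 (edgeR adjusted p = 0.00294).

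Cdk16 gave 110, 99.4, 152 and 126 CPM against 61.1, 49.2, 48.5 and 6.33, also with no overlap (1.08, edgeR adjusted p = 0.00873). These 3 calls held in 14 of 14 alternatives each. Usp11 gave 30.5, 24.6, 39.4 and 24.5 CPM against 14.5, 7.68, 9.71 and 19.0, without overlap, and a difference of 1.16 (edgeR adjusted p = 0.0263). Its call was lost with the replicate pairs as a block (adjusted p = 0.0720) and without RBM10 library 1 (0.0582) or 3 (0.0606) or IgG library 1 (0.0513) or 2 (0.228, difference 0.74).

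Uba1 held the most crosslinks of the 7 genes, 281, 252, 347 and 342 CPM against 189, 149, 204 and 171. The groups did not overlap, and the difference of 0.54 was the smallest of the 5 calls (edgeR adjusted p = 0.02996). Without TMM factors it was 0.81 (adjusted p = 0.00468). The call was lost without RBM10 library 1 (0.0516), 3 (0.0610) or 4 (0.0517), without IgG library 1 (0.0605) or 2 (0.145), and with each position counted once (0.0854). Timp1 did not pass, with 71.8, 61.8, 82.9 and 71.0 CPM against 45.6, 43.4, 77.7 and 44.3 (0.33, edgeR adjusted p = 0.262; 0.59 and 0.0659 without TMM factors). IgG library 3 lay within the RBM10 range there. Ndufb11 carried 1, 8, 8 and 4 crosslinks in the RBM10 libraries and 4, 11, 0 and 0 in IgG, too few to be tested.

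**Figure D4:**
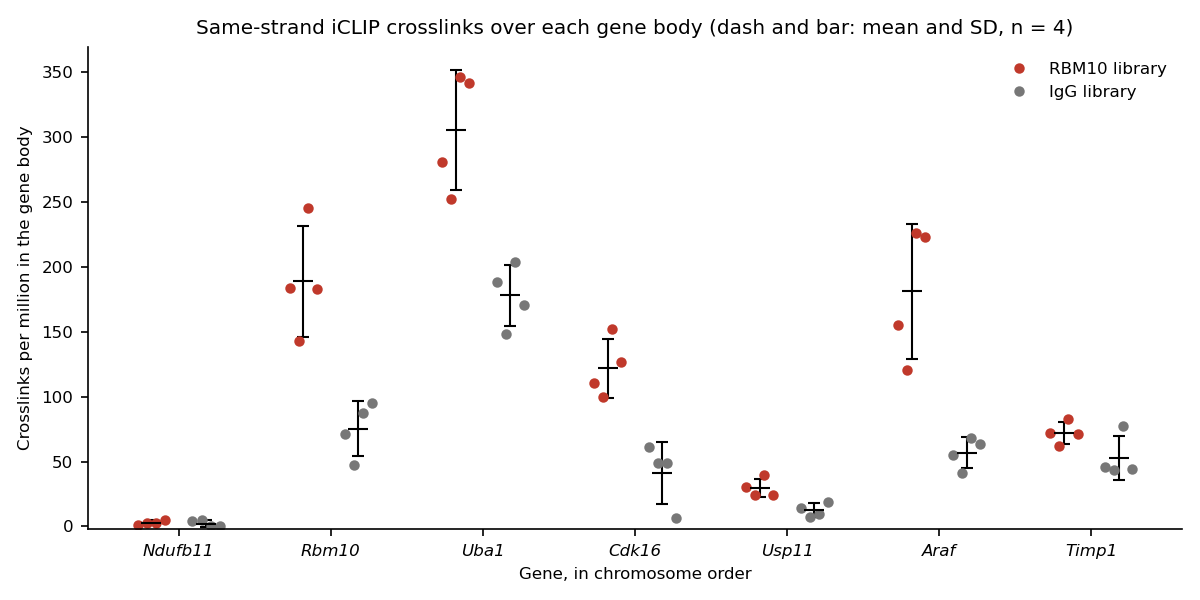
Same-strand CPM in each gene body (y axis, linear) for the 7 genes in chromosome order (x axis); points are the 4 RBM10 (red) and 4 IgG (grey) libraries, with mean and SD. The libraries do not overlap over Rbm10, Uba1, Cdk16, Usp11 and Araf, and do over Timp1, where IgG library 3 reaches 77.7.

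Within the gene bodies the RBM10 crosslinks lay more in introns, within 100 nt of splice sites and on cytosines than the IgG crosslinks. Over the 7 genes 68.9, 64.7, 77.8 and 75.5% were intronic in the RBM10 libraries and 39.3, 33.5, 37.3 and 52.4% in IgG, a difference of 31.1 points. The last 100 nt before 3′ splice sites held 21.2, 17.9, 25.7 and 18.7% against 5.18, 4.35, 1.96 and 1.59%. With that window cut to 50 nt the difference shrank from 17.6 to 2.80 points, but kept its call. The first 100 nt after 5′ splice sites held 20.2, 16.1, 20.6 and 17.9% against 5.41, 4.35, 0 and 9.52%.

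The crosslinked base was C in 43.1, 39.8, 48.9 and 51.7% of RBM10 crosslinks and 21.6, 21.9, 27.5 and 27.0% of IgG crosslinks, where 22.6% of the genes' bases are C. On none of the 4 shares did the groups overlap, and each gave p = 0.0286 by a 2-sided exact permutation test over 70 splits (0.0286 after adjustment over the 4 shares), the smallest p this design can give. Each was higher in RBM10 in 4 of 4 replicate pairs, with an exact sign flip p of 0.125, also the smallest possible. IgG libraries 3 and 4 rest on 51 and 63 crosslinks on these genes.

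Within Rbm10 alone the intronic share barely differed, at 98.3% of 1452 RBM10 and 94.95% of 198 IgG crosslinks pooled over libraries. The share before 3′ splice sites was 33.1% against 4.55% there, and that on C 47.1% against 20.7%. For Rbm10 taken alone the shares before 3′ splice sites (+27.9 points) and on C (+29.5 points) each had the smallest possible exact permutation p (0.0286), with no overlap between the groups, and 0.0571 after adjustment over the 4 shares. With this design a fully separated share passes the adjustment only if most of the 4 shares separate fully, so its adjusted value rests on the others too. The intronic share and that after 5′ splice sites did not separate fully, with adjusted exact permutation p-values of 0.486 and 0.152. By library, the share before 3′ splice sites was 30.0, 31.8, 46.2 and 30.9% for Timp1 and 27.8, 29.6, 38.2 and 26.1% for Rbm10. With libraries weighted equally the mean was 34.7 ± 7.67% for Timp1, 33.3 ± 9.46% for Usp11 and 30.4 ± 5.39% for Rbm10 (SD, n = 4 each), which did not differ beyond their spread. Cdk16 (19.6 ± 3.19%) and Uba1 (18.3 ± 4.63%) had lower means, and Araf had 8.22 ± 3.46%, with 3.47 to 10.98% in single libraries. Ndufb11 had 21 crosslinks in all. These levels were not tested between genes. A base counted as exonic if any annotated transcript held it, retained-intron ones included, so the shares by region depend on the annotation too. Merged exons covered 6541 nt of Araf against 2358 nt in Araf-001, and 4378 nt of Cdk16 against 3120 nt in Cdk16-001.

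RBM10 crosslinks on its own pre-mRNA gathered in the introns before exons 5, 6 and 7. Of 17884 exons and introns tested genome-wide 47.5% were called, 31.4% higher and 16.1% lower, and of 23 tested in these genes 17 were called, 15 of them higher. A segment needed enough crosslinks in as many libraries as 1 group holds, so one nearly empty in IgG could enter through the RBM10 libraries alone. The number of higher calls therefore reflects this filter too. The genome-wide balance depended on the setting. DESeq2 moved the median log2 difference from 0.07 to 0.77 and called 39.2% higher and 1.5% lower, and fits without RBM10 library 3 or 4 or IgG library 2 called 4.06, 1.84 and 1.86% lower. The intron before exon 7 (chrX:20218383-20219869) held 69, 129, 281 and 50 crosslinks in the RBM10 libraries and 19, 10, 0 and 2 in IgG, an excess of 2.68 on the log2 scale (edgeR adjusted p = 3.25e-05). The intron before exon 6 (chrX:20216629-20218308) held 36, 75, 107 and 34 against 12, 10, 0 and 0 (2.36, edgeR adjusted p = 0.000347). That before exon 5 (chrX:20214783-20216558) held 18, 35, 73 and 9 against 3, 9, 1 and 1 (1.96, 0.00491), a call lost without IgG library 1 (0.0670) or 2 (0.0534).

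These 3 introns held 9.30, 17.4 and 36.4% of RBM10 crosslinks on Rbm10 in the order of exons 5, 6 and 7, and 7.07, 11.1 and 15.7% of IgG crosslinks. The intron before exon 3 as the annotation splits it (chrX:20197241-20212605), 15365 nt long, went the other way. It held 5.30% of RBM10 and 34.3% of IgG crosslinks, with 11, 40, 21 and 5 against 13, 42, 6 and 7 crosslinks. This difference of −1.30 passed (edgeR adjusted p = 0.0276) but was lost in 8 of 14 alternatives, among them DESeq2 (0.212) and fits without RBM10 library 1 (0.0630), 3 (0.145) or 4 (0.227) or IgG library 2 (0.127).

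**Figure D5:**
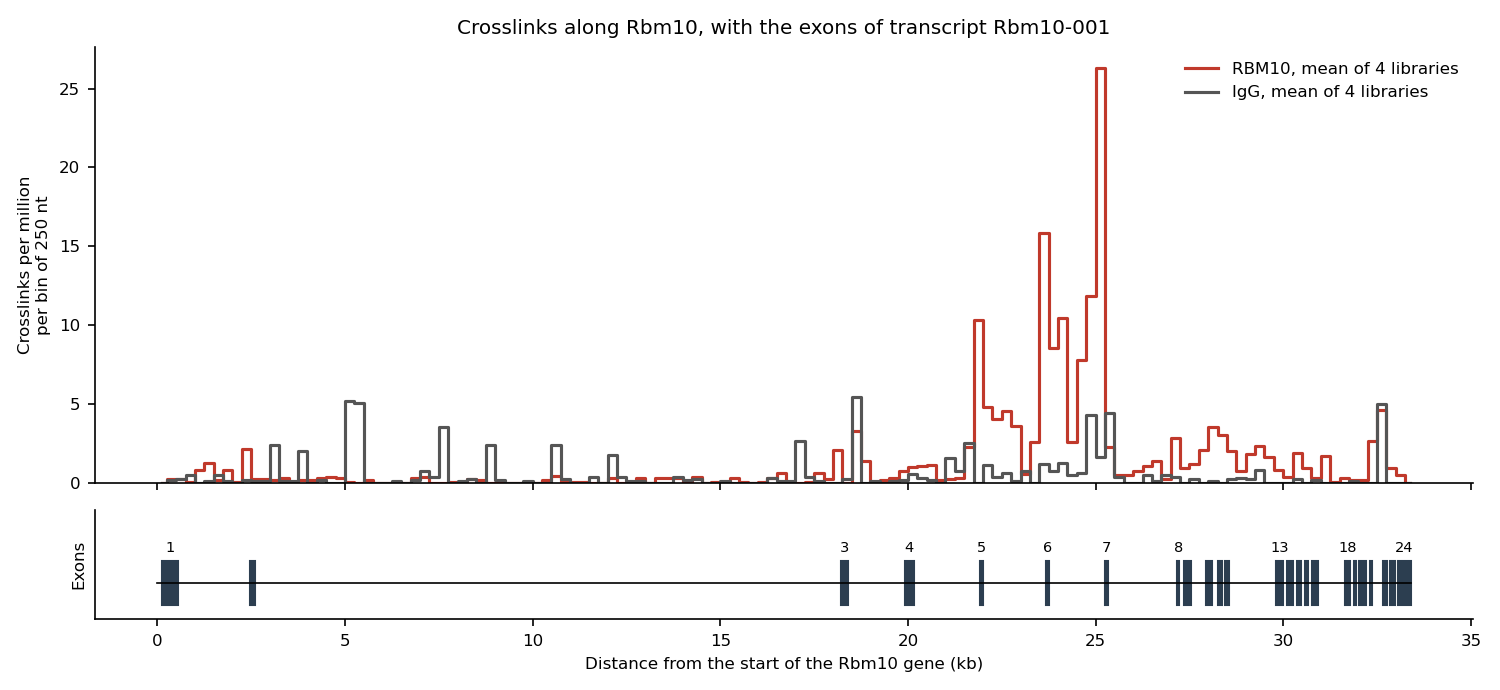
Mean CPM per bin of 250 nt (y axis) along Rbm10 against the distance from its start in kb (x axis), for 4 RBM10 and 4 IgG libraries, above the exons of Rbm10-001. The highest bin, 26.3 CPM in RBM10 and 1.68 in IgG at 25.1 kb, ends at exon 7, and those at 23.6 kb (15.9 CPM) and 21.9 kb (10.3 CPM) end at exons 6 and 5.

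In windows of 100 nt before the 3′ splice sites the pattern was sharper. The 100 nt before exon 7 held 14, 34, 76 and 9 RBM10 crosslinks and 1, 1, 0 and 0 IgG crosslinks. The 100 nt before exon 6 held 11, 31, 52 and 9 against 1, 1, 0 and 0, and those before exon 5 held 8, 20, 53 and 4 against 0 in every IgG library. Together they carried 321 of the 481 RBM10 crosslinks within 100 nt before a 3′ splice site of Rbm10 (66.7%). Before exon 4, the cassette, the RBM10 libraries had 4 crosslinks in all and IgG 1. These windows were chosen after their values were seen and were not tested. Their sequences follow (mm9, forward strand, ending in the AG of the splice site), with capitals at bases crosslinked in at least 3 of the 4 RBM10 libraries:
before exon 5 (chrX:20216459-20216558): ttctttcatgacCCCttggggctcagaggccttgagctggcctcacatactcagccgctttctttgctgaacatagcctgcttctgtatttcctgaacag
before exon 6 (chrX:20218209-20218308): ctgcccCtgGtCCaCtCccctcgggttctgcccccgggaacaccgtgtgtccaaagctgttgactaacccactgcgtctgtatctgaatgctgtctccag
before exon 7 (chrX:20219770-20219869): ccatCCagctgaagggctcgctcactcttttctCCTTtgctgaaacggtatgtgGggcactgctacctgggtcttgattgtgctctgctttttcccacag

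Of the 16 bases in capitals 12 are C and 2 are T. The windows are themselves rich in both, with 30, 37 and 29 C and 32, 25 and 33 T in 100 nt before exons 5, 6 and 7. Most of the bases in capitals stand in runs of C or of C and T, and none adjoins the splice site.

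Of the neighbours' segments, those of Uba1 numbered most, with 6 introns higher. The intron between merged exons 16 and 17 (chrX:20249642-20249941) held 51, 103, 154 and 45 RBM10 crosslinks against 4, 1, 0 and 0 (4.84 on the log2 scale, edgeR adjusted p = 2.13e-07). Introns 9, 17, 19, 20 and 23 of Uba1 exceeded IgG by 2.58 to 4.73 (edgeR adjusted p 1.16e-05 to 0.000634). Its last exon, 29, was lower (−1.48, 0.0142), which was lost with the pairs as a block (0.0552), by DESeq2 (0.297) and without RBM10 library 3 (0.0927) or 4 (0.114) or IgG library 1 (0.0908) or 2 (0.0706). Intron 5 of Araf (chrX:20430031-20430443) had 27, 59, 131 and 32 against 1, 1, 0 and 0 crosslinks (5.57, edgeR adjusted p = 2.95e-07). Introns nearly empty in IgG, such as this one, entered the test through the RBM10 libraries, so their p-values also reflect the filter.

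Intron 3 of Araf (3.17, edgeR adjusted p = 1.34e-05) and its merged exon 2 (1.79, 0.00243) were higher as well. In Cdk16 intron 3 (3.86, 2.95e-05) and merged exon 9 (2.49, 0.000192) were higher. A merged exon can hold sequence that is intronic in other transcripts of the gene. Timp1, whose gene body did not pass, had 1 tested segment, intron 3 (chrX:20449983-20450175), with 22, 62, 72 and 15 RBM10 crosslinks against 3, 0, 0 and 0 (4.38, edgeR adjusted p = 1.12e-05). Leaving out IgG library 2 gave a fitted difference of 3.20. Leaving out IgG library 1 gave 7.92, but the other IgG libraries hold 0 crosslinks and that value is no bound. No segment of Usp11 or Ndufb11 had enough crosslinks to be tested. Of the 15 higher segments, all but the intron before exon 5 of Rbm10 kept their calls in every alternative that gave them a value, 13 or 14 each. Segments nearly empty in IgG, among them intron 3 of Timp1, entered the test through the RBM10 libraries. Their p-values and kept calls therefore reflect the filter too.

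At single-nucleotide resolution 38 positions on the 7 genes were crosslinked in all 4 RBM10 libraries, and none in all 4 IgG libraries. Uba1 held 18 of them, Araf 8, Timp1 6, Rbm10 3, Cdk16 2, Usp11 1 and Ndufb11 none. C was the base at 33 and T at 4 of the 38, 31 lay in introns, 12 of these within 100 nt before a 3′ and 12 within 100 nt after a 5′ splice site, and 33 had no IgG crosslink. Libraries of greater depth find more such positions, so their number reflects depth too. The 3 sites of Rbm10 and the site with the highest mean CPM in each other gene are shown with 20 nt on each side (mm9, forward strand), the crosslinked base in capitals:
Rbm10 (chrX:20218200-20218240): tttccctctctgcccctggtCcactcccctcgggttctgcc
Rbm10 (chrX:20216453-20216493): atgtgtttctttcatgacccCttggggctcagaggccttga
Rbm10 (chrX:20218454-20218494): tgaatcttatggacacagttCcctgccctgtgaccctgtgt
Uba1 (chrX:20249672-20249712): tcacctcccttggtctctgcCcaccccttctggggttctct
Cdk16 (chrX:20270361-20270401): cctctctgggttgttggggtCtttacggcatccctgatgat
Usp11 (chrX:20291562-20291602): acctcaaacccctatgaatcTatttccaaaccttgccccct
Araf (chrX:20427723-20427763): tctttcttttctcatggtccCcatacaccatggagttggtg
Timp1 (chrX:20450087-20450127): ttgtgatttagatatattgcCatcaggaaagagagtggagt

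The first Rbm10 site lies 89 nt before exon 6 and held 2, 3, 14 and 2 RBM10 crosslinks. The second, 86 nt before exon 5, held 1, 4, 3 and 4, and the third, 92 nt after exon 6, held 1, 2, 5 and 3. None of the 3 held an IgG crosslink. The Uba1 site, 51 nt into its intron 16, had 13, 2, 14 and 8 crosslinks and that of Araf, in intron 3, had 3, 9, 15 and 6, both with none in IgG. The Timp1 site, 69 nt before merged exon 4, had 2, 13, 15 and 3, and IgG library 1 had 2 there. Those of Cdk16 and Usp11 held 10 and 11 RBM10 crosslinks in all. Each single site rests on few crosslinks, and whether copies of a molecule had been collapsed is not given in the sources used here.

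Across libraries, the genes whose level ran closest to that of Rbm10 included, in md cells, Hn1 (Pearson r = 0.987) and Lfng (0.987), out of 2883 genes over 7 libraries. In ES cells they were Ebp, Porcn and Nr5a2 (0.996 each), out of 2158 genes over 6 libraries. Among the neighbours, r in md cells was 0.914 for Araf, 0.845 for Uba1, 0.771 for Cdk16, 0.349 for Timp1, −0.10 for Usp11 and −0.49 for Ndufb11. In ES cells it ran from 0.742 for Uba1 to 0.970 for Cdk16. These correlations of log2(TPM + 1) describe these libraries. In ES cells they follow the split into 2 groups of 3, and in md cells the low level of Rbm10 in KO3 and KO4. A gene that differs along the same split in the same direction can therefore have a high r.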

How the data were processed

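The members, the gene lists and the markers were chosen with earlier results of these data known. The authors deposited TPM per transcript for md and ES cells in separate tables, per the file headers, and crosslink counts per nucleotide and strand for each iCLIP library, mapped to mm9 per the series' design text. The submitters' processing notes name mm9 and mm10 without a role. No aligner, transcript quantifier or treatment of duplicates is given in the sources used here.

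Transcripts were joined by identifier to GENCODE vM1 (mm9), which held 84877 of 100249 (84.7%), and gene TPM was summed over them. Genes that reached 1 TPM in 3 or more libraries of a table were compared as log2(TPM + 1) with limma 3.58.1 (R 4.3.3), so folds of low genes are understated. The exon 3 and exon 9 clones and WT shared one fit. The difference between cell types was taken within tables, and p-values were adjusted over all genes by the Benjamini-Hochberg method at 0.05. Transcript shares and cassette inclusion were compared in percentage points with limma for features with a mean between 5 and 95%, and a call also needed 10 points. Crosslink counts over gene bodies, merged exons and introns were compared with the quasi-likelihood test of edgeR 4.0.16, with DESeq2 1.42.0 as an alternative. Features were kept by the edgeR count filter (filterByExpr), which needs enough crosslinks in as many libraries as 1 group holds. Library sizes were the total crosslinks per library multiplied by TMM factors (0.848 to 1.21 for gene bodies), so log2 differences need not equal ratios of CPM, which use totals alone. Intervals from counting are wider in the shallow IgG libraries 3 and 4. Shares of crosslinks by region used exact permutation tests in Python 3.11.15. The procedures were tested on simulated data.

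Named were the 7 genes, their transcripts with a mean share of at least 10%, their called segments, called members of the lists, and the 3 genes closest to Rbm10 by correlation among genes averaging 5 TPM or more with an SD of at least 0.3. Exons 5 to 7 of Rbm10 were picked out after their values were seen, as were Phf16, Dusp6 and Spry2 in md cells. A few genes that the rule names are not reported here.

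Each RBM10 library had its own IgG precipitation per the design text, which pairs the iCLIP replicates, although the correlation of paired deviations was only −0.0345 to 0.0321. Alternatives were the pseudocount, the filters, quantile normalisation, other scales and windows, the replicate block and each library left out.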

Additional observations from a re-analysis of the deposited data

Results flagged for a closer look

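Chance alone flags about 1 in 20 groups of samples for a sample that stands apart, and 27 groups of 4 were examined.

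Among the 4 md knockout clones, Uba1 in KO4 (140 TPM) stood apart from the other 3, which measured 195 to 203 TPM. Among the IgG libraries, Timp1 crosslinks in IgG library 3 (77.7 CPM) stood apart from 43.4 to 45.6 CPM in the others. That library held 103017 crosslinks, the fewest of the 8.

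The exon 9 clones differed from the exon 3 clones in Rbm10 by −1.88 on the log2(TPM + 1) scale (limma adjusted p = 0.0247) and in Araf by −0.72 (0.0237). These values stood out because 2 kinds of clone with deletions in the same gene differed by the test. Each call is lost without any 1 WT sample, and the part of other differences between the clones was not tested. Both exon 9 clones lay below both exon 3 clones for each gene. The knockout effect on Ndufb11 was lower in ES than in md cells by 0.81, a difference of −0.81 (limma adjusted p = 0.0484). Cell type cannot be told apart from the kind of mutation, a gene trap in ES cells and CRISPR deletions in md cells. All 3 gene trap samples lay below all ES WT samples, whereas 3 of the 4 md clones lay above all md WT samples.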

How the results depend on the processing

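Counts are of members called. Leaving out 1 library at a time gave 0 to 4 in the exon 9 clones, 0 to 4 between the kinds of clone, 1 to 6 in ES cells, 0 to 2 for the difference between cell types, 1 to 2 for ES transcript shares and 0 for the ES cassette exons. It gave 3 to 5 iCLIP gene bodies and 15 to 21 segments. Over whole tables these fits called 49 to 4054 genes in ES cells in place of 1576, 2 to 472 in the exon 3 clones (24), 4 to 986 in the exon 9 clones (76), 50 to 2249 between the kinds of clone (451) and 8 to 1314 for the difference between cell types (104). They called 1 to 30 ES transcripts (9), 0 to 12 transcripts in the exon 9 clones (14), 0 to 12 ES cassette exons (17), 1794 to 4018 gene bodies (3472) and 5145 to 12675 segments (8500). With no filter on low values the calls were 774 in ES cells, 118 in the exon 9 clones, 225 for the cell type difference and 6 over the 4 clones (2), and quantile normalisation gave 170 for the cell type difference. A mean of at least 5 TPM gave 10 in the exon 3 clones and 0 over the 4 clones, as did pseudocount 0.1 (0).

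RNA replicate numbers share only a number. Correlations of same-numbered deviations were −0.11, −0.0012 and −0.061 in md cells and 0.16, −0.13 and 0.039 in ES cells. With the replicate block ES cells gave 2 called members (422 genes in all), and 0 for shares and 0 for cassette exons (0 in all for both), and over the 4 md clones 0 genes. In md cells no WT sample carries the number 4, so the blocked fit takes its difference from KO1 to KO3 and gives the values of the fit without KO4, 0.025 for Cdk16, −0.051 for Usp11 and 0.13 for Timp1. In iCLIP the block ended the calls of Usp11 and of Uba1 exon 29 given above and no other.

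A minimum of 5 TPM in every library removes Rbm10 from the ES shares and cassette exons before testing, so its 0 and 0 (18 and 30 in all) say nothing of Rbm10. No member's cassette exon passed on the logit scale (0) or with no minimum (0; 2 in all). For transcripts the logit scale called 5 in ES cells, 8 in the exon 9 clones and 8 in the exon 3 clones (0), no minimum 9 in the exon 3 clones, and at least 5 TPM 4 in the exon 9 clones. Over the 4 clones 1 transcript (logit scale, no minimum) and 2 cassette exons (logit scale) were called in place of 0. A minimum of 10 crosslinks tested more segments and called 36 (21982 in all), and pairs 1 and 2 alone called 13928 in all. The shares of Rbm10 alone gave 0 of 4, with the limit given above. Pseudocount 0.1 turned Usp11 in the exon 9 clones to −0.00050, and quantile normalisation Timp1 between kinds of clone to 0.0055. These were uncalled differences near 0.

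Leaving out 1 library turned the sign of other uncalled differences. Over the 4 clones Cdk16 ran from −0.11 to 0.025, Usp11 from −0.081 to 0.21 and Timp1 from −0.25 to 0.13. In the exon 3 clones Rbm10 ran from −0.20 to 0.025, Cdk16 from −0.010 to 0.19, Usp11 from −0.27 to 0.50 and the share of Rbm10-004 from −0.96 to 1.17 points. In the exon 9 clones Ndufb11 ran from −0.087 to 0.40, Usp11 from −0.38 to 0.41 and Timp1 from −0.66 to 0.49. Between the kinds of clone Ndufb11 ran from −0.23 to 0.25, Uba1 from −0.50 to 0.024, Usp11 from −0.50 to 0.30 and Timp1 from −0.61 to 0.54, where it passed in both directions, without KO3 (adjusted p = 0.0456) and without KO4 (0.0410) by limma. A fit that leaves 1 clone in an arm assumes that clone varies like the other groups. The cause of these changes was not tested. Under a mean of at least 5 TPM Usp11 gave no md value, and Uba1 intron 20 and Cdk16 intron 3 gave none in 1 of 14 alternatives each. Depth limits the IgG values, which rest on 51 to 758 crosslinks on the 7 genes.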
